A study of Homo sapiens with 15 samples.

Results

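The core pluripotency genes followed here were POU5F1, SOX2, NANOG, PRDM14, UTF1, ZFP42, SALL4, DPPA4, L1TD1 and TERT, 10 of the 48777 genes of the deposited tables. They were chosen by name, and each was found by matching the Ensembl identifier of its row to the GENCODE symbol. In the study H1 cells, a widely used line of human embryonic stem cells, were grown on recombinant laminin and turned into cardiac progenitors. Bulk RNA-seq covered days 0, 4, 9, 11 and 20 with 3 biological replicates per day, 15 libraries in all. All groups were H1 cells without any genetic change, labelled as grown on LN521+LN221, and they differ in the day of harvest. Day 0 cells were in stem cell medium. According to the treatment protocol, the cells reached confluence on day 4 and then received the Wnt activator CHIR99021, followed by the Wnt inhibitor IWP2 before day 9, whereas another protocol text in the labels gives earlier days for both compounds. The deposited sample table lists L521 alone for the day 0 libraries and both laminins for all others, so the laminin and the day cannot be told apart between day 0 and the later days. The study's methods list day 7 where the sample labels give day 9, and the labels were followed. H1 is 1 cell line, and each library is a bulk sample of a whole dish.

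Pluripotent cells keep themselves undifferentiated through a small set of transcription factors. POU5F1 (OCT4), SOX2 and NANOG bind many of the same regulatory regions, activate their own genes and each other's, and hold back lineage genes. POU5F1 and SOX2 do so as a pair, on a composite DNA element in which an octamer site lies next to a SOX site. Around this core stand other nuclear proteins typical of stem cells and germ cells (PRDM14, SALL4, ZFP42, UTF1 and DPPA4), an RNA-binding protein (L1TD1) and the catalytic subunit of telomerase (TERT).

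Promoter sequences were taken from the RefSeq table on GRCh38.p14 for 7 of the 10 genes (NANOG, SOX2, ZFP42, DPPA4, L1TD1, UTF1 and TERT). No promoter sequence of POU5F1, SALL4 or PRDM14 was searched. The 250 bases before the RefSeq start were searched on both strands for the octamer core ATGCAAA, the SOX core ACAATG and the composite element TTTGCATNACAATG, which holds the reverse complement of the octamer core followed by the SOX core. The windows of NANOG, SOX2 and ZFP42 are shown, 5′ to 3′ on the strand of the gene, with the matches in capitals.
NANOG, chr12:7789152-7789401, plus strand: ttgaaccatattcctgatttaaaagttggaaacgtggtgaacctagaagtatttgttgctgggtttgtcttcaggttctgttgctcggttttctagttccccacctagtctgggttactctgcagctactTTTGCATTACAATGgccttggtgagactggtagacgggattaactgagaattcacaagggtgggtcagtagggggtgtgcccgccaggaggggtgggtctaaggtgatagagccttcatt
SOX2, chr3:181711675-181711924, plus strand: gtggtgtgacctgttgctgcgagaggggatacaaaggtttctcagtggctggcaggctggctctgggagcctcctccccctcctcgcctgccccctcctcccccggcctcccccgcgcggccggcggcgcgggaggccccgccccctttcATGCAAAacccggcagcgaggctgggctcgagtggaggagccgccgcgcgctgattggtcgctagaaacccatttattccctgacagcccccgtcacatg
ZFP42, chr4:187995521-187995770, plus strand: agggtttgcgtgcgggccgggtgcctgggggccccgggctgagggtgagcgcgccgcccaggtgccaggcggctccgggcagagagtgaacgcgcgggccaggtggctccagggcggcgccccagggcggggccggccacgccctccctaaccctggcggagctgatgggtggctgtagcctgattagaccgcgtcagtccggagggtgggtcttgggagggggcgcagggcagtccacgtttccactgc
The NANOG window held the composite element from base -120 to base -107 before the start, a match found in 2 of 35116 windows (0.00570%). The SOX2 window held an octamer core at base -100, as did 3.94% of windows, and no SOX core, which 9.29% of windows held. The windows of ZFP42, DPPA4, L1TD1, UTF1 and TERT held none of the 3 letter strings. The GC content of the 7 windows ran from 43.2% for DPPA4 and 47.6% for NANOG to 74.4% for ZFP42 and 78.8% for TERT, around a median of 58.0% over all windows. These are matches of letters only, and no binding was measured here.

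The libraries held between 11990302 and 33469703 counts on genes, and 1 of them stood apart. The day 20 library of plate 2_3 had an RNA integrity number of 6.1, against 8.8 to 10 in the other 14, and reads on 48230 genes. Genes without reads on earlier days carried reads there, so day 20 calls and the shares left of the 10 genes are given with and without it. Levels are in TPM as deposited, a unit scaled to gene length and to the sum of each library. CPM is a count scaled to the library total, here multiplied by its TMM factor. The factor was left out in the limit set by a count of 0 and where the level of silent genes was subtracted. A short unnamed gene took 20.0% of the TPM of the third day 0 library and 17.0% of that of day 9 plate 2, which lowers all other TPM in these 2 libraries. Counts were tested with edgeR, which scales libraries by TMM.

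On day 0 all 10 genes were expressed, over a wide range of levels. POU5F1 was the highest of them at 1348, 1555 and 931 TPM in the 3 replicates, and by mean TPM it ranked 73rd of all genes. L1TD1 stood at 645, 1400 and 519 TPM, so that 1 replicate held more than the other 2 together. SOX2 stood at 1022, 695 and 775 TPM. By mean TPM these were the strongest of the 10 genes, and the ranges of all 3 overlapped. DPPA4, a chromatin-associated protein of early embryos and germ cells, followed at 714, 648 and 396 TPM. Its range overlapped those of L1TD1 and SOX2. SALL4, PRDM14 and ZFP42 had mean levels of 369 ± 49.5, 340 ± 70.7 and 317 ± 106 TPM (SD, n = 3), differences smaller than their spread. NANOG, the homeodomain protein of the core, was far lower, with 39.2, 92.6 and 27.0 TPM, and its highest replicate was again the second. UTF1 (22.5 ± 4.28 TPM) and TERT (20.8 ± 3.06 TPM) were the lowest, at ranks 7016 and 7394 by mean TPM.

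**Figure D1:**
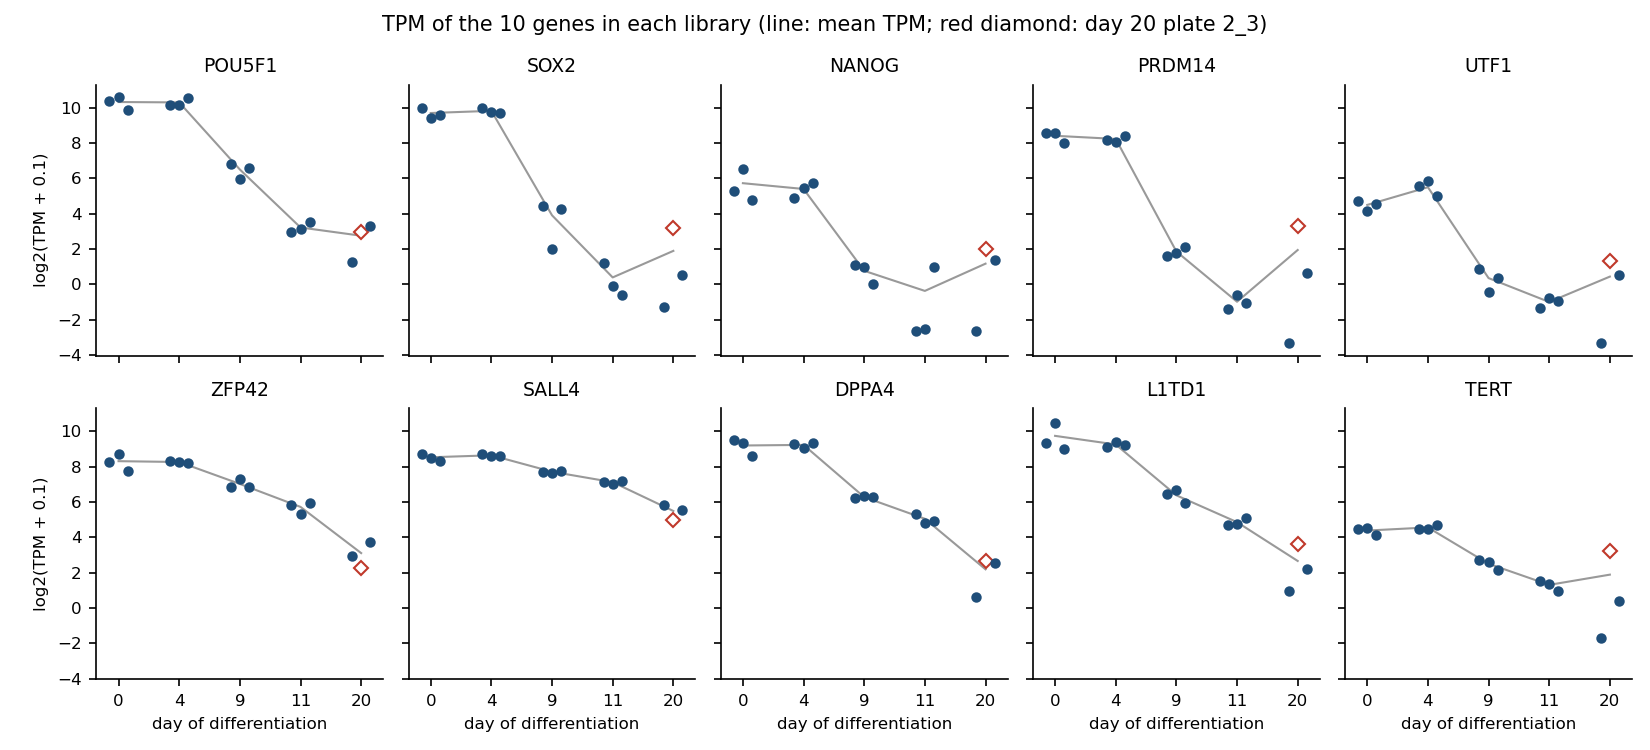
Level of each of the 10 genes in each of the 15 libraries, as log2(TPM + 0.1) against the day of differentiation, with a grey line through the daily means of TPM (n = 3). Days 0 and 4 overlap for 9 genes, all 10 genes drop by day 9, and on day 20 the library of plate 2_3 (open red diamond) is the highest of the 3 for NANOG, SOX2, PRDM14, UTF1, L1TD1, DPPA4 and TERT and the lowest for ZFP42 and SALL4.

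From day 0 to day 4 none of the 10 genes passed the test. With edgeR, 0 of 10 genes had an adjusted p-value under 0.05 (Benjamini-Hochberg, two-sided), as did 0% of the 20964 genes tested, of which 741 (3.53%) had an unadjusted p under 0.05. POU5F1 stood at 1138, 1154 and 1486 TPM on day 4, within its range on day 0, with a log2 fold change of -0.07 ± 0.16 (standard error). SOX2 stood at 1007, 866 and 841 TPM, a log2 fold change of 0.05 ± 0.17. The 2 days overlapped for both genes, as they did for 9 of the 10, and none of the 10 lay lower on day 4 without overlap, where 5.08% of the genes tested did. UTF1, a chromatin-bound protein of undifferentiated cells, was the exception. It stood at 26.3, 17.9 and 23.4 TPM on day 0 and at 47.1, 57.2 and 31.4 TPM on day 4, with each day 4 library above every day 0 library, as for 4.93% of the genes tested. Its counts were low, between 105 and 211 on day 0 and between 224 and 451 on day 4. The log2 fold change of UTF1 was 0.94 ± 0.27 (unadjusted p = 0.00634 and adjusted p = 0.885 from edgeR), and over 15 alternatives its adjusted p ran from 0.0282, with edgeR and no filter on low counts, to 1. The largest negative value among the 10 was that of L1TD1, at -0.53 ± 0.30, with overlapping days. It was -0.04 without the second day 0 replicate, the library with the high L1TD1 level.

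All 10 genes fell between day 4 and day 9. Each had an adjusted p-value under 0.05 in edgeR, and no day 9 library reached any day 4 library, where 24.7% of the 21252 genes tested were lower, 24.3% were higher and 29.9% did not overlap in that direction. The median log2 fold change was -3.34 for the 10 genes and 0.01 for all genes tested. Bulk libraries cannot tell fewer cells that express a gene from less of its RNA in each cell. Given as the time needed to halve the level, had the fall been even over these 5 days, the genes ran from 0.785 days for PRDM14 to 5.51 days for SALL4.

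The core trio fell unevenly. POU5F1 stood at 115, 61.4 and 95.8 TPM on day 9 (the libraries of plate 2, plate 6_1 and no plate number, in this order), 7.09% of its day 0 mean. Its log2 fold change against day 4 was -3.76 ± 0.29 (adjusted p = 4.09e-05, edgeR). SOX2, its binding partner, fell further, to 21.5, 3.93 and 19.4 TPM, or 1.80% of day 0, with a log2 fold change of -5.86 ± 0.63 (adjusted p = 0.000248, edgeR). The plate 6_1 library was the lowest of day 9 for both genes. NANOG stood at 2.03, 1.87 and 0.93 TPM, 3.04% of day 0, a log2 fold change of -4.72 ± 0.33. These values rest on 37 to 55 counts per library.

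PRDM14, a zinc-finger protein with a PR domain that keeps lineage signals low in stem cells, showed the largest drop of the 10. From 292, 266 and 343 TPM on day 4 it went to 2.98, 3.37 and 4.26 TPM on day 9, with close replicates on both days and 36 to 77 counts left per library. Its log2 fold change of -6.37 ± 0.19 (adjusted p = 5.90e-07, edgeR) was the 51st lowest of the 21252 genes tested. UTF1 fell from its day 4 level to 1.75, 0.63 and 1.17 TPM, on 4 to 10 counts, a log2 fold change of -5.23 ± 0.39. For the order by size of drop (PRDM14, SOX2, UTF1, NANOG, POU5F1, DPPA4, L1TD1, TERT, ZFP42, SALL4), neighbours were compared by their standard errors. The standard errors were combined as if the genes were independent, although all were measured in the same libraries. PRDM14 and SOX2, SOX2 and UTF1, and UTF1 and NANOG lay within 2 combined standard errors of each other, and so did DPPA4 and L1TD1, and ZFP42 and SALL4. NANOG and POU5F1, POU5F1 and DPPA4, L1TD1 and TERT, and TERT and ZFP42 lay further apart than that.

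DPPA4 and L1TD1 formed the middle of the order. DPPA4 stood at 74.7, 79.7 and 77.9 TPM on day 9, the tightest replicates of the 10 genes, with 13.2% of day 0 left and a log2 fold change of -2.93 ± 0.13. L1TD1, which derives from the open reading frame of a LINE-1 retrotransposon and binds RNA, stood at 86.7, 101 and 61.2 TPM, 9.71% of day 0, a log2 fold change of -2.87 ± 0.19. TERT, which adds telomere repeats to chromosome ends, went from 22.0, 22.5 and 26.0 TPM to 6.54, 5.91 and 4.28 TPM, so that 26.8% of its day 0 level was left (log2 fold change -2.06 ± 0.19).

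ZFP42 and SALL4 fell least. ZFP42 (REX1), a zinc-finger protein used as a marker of undifferentiated cells, stood at 116, 160 and 113 TPM on day 9, or 41.0% of day 0, with a log2 fold change of -1.23 ± 0.13 (adjusted p = 0.000132, edgeR). SALL4, a zinc-finger partner of POU5F1 and NANOG that is also made in other embryonic tissues, stood at 209, 200 and 219 TPM, or 56.7% of day 0, with a log2 fold change of -0.91 ± 0.13 (adjusted p = 0.000661, edgeR). On day 9 SALL4 was the highest of the 10 genes in every library, ahead of ZFP42, whereas POU5F1 had been above SALL4 in every library of days 0 and 4.

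**Figure D2:**
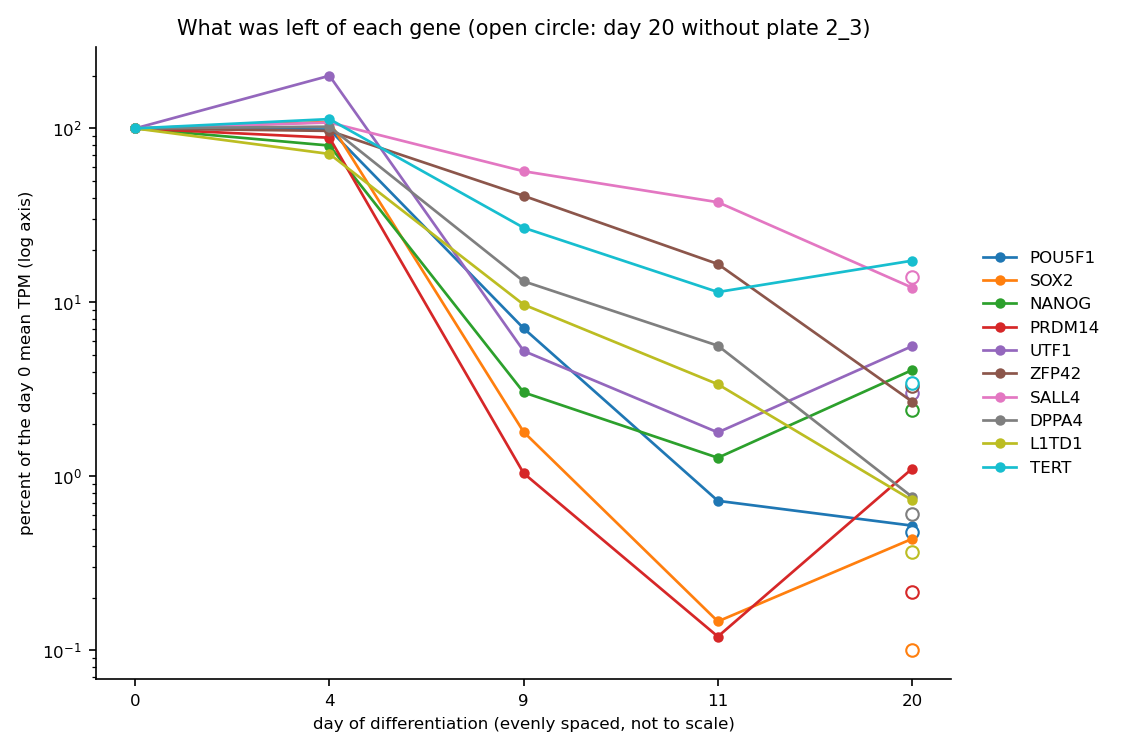
Mean TPM of each gene as a percent of its day 0 mean (n = 3 libraries per day, log axis) against the day of differentiation (days evenly spaced, not to scale), with open circles for day 20 without the library of plate 2_3 (n = 2). On day 9 the genes spread from 1.04% (PRDM14) to 56.7% (SALL4), on day 11 from 0.120% to 37.6%, and the open circles lie below the filled ones for 8 genes and above them for ZFP42 and SALL4.

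From day 9 to day 11, 5 of the 9 genes tested fell, where 1.00% of the 20679 genes tested were lower. These were POU5F1, PRDM14, L1TD1, ZFP42 and DPPA4. UTF1, at 2 to 3 counts per library on day 11, did not pass the filter on low counts. For 8 of the 9 genes every day 11 library lay below every day 9 library, as for 12.4% of all genes tested, and the exception was NANOG. The calls, though not the sizes, depended on single libraries. Without the day 9 library of plate 2, 0 of the 10 genes and 0 of all genes passed in edgeR, and 2 of the 10 passed without the day 9 library that has no plate number or without the day 11 library of plate 2. With 1 library left out at a time the log2 fold changes ran from -3.62 to -3.11 for POU5F1, -3.40 to -2.95 for PRDM14, -1.74 to -1.47 for L1TD1, -1.49 to -1.17 for ZFP42 and -1.45 to -1.17 for DPPA4.

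POU5F1 fell to 7.69, 8.56 and 11.5 TPM on day 11 (plates 2, 5 and 6), 0.723% of day 0, with a log2 fold change of -3.36 ± 0.32 against day 9 (adjusted p = 0.0126, edgeR). With the plate number as a block this call was lost (-3.17, adjusted p = 0.184, edgeR). It had fallen by 0.75 on the log2 scale per day between days 4 and 9, and fell by 1.68 per day between days 9 and 11; both values use the day 9 libraries, and their difference was not tested. PRDM14 fell to 0.28, 0.55 and 0.39 TPM, on 4 to 7 counts per library, with a log2 fold change of -3.16 ± 0.37 (adjusted p = 0.0147, edgeR). It kept 0.120% of its day 0 level, the lowest share of the 10. SOX2 stood at 2.24, 0.84 and 0.57 TPM, 0.147% of day 0. The plate 2 library held the most SOX2, 33 counts against 11 and 9. Its log2 fold change of -3.71 ± 0.80 did not pass over all genes (adjusted p = 0.0648, edgeR), although the days did not overlap, and the adjusted p from DESeq2 was 1.22e-06.

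NANOG was high in 1 library. It stood at 0.06 and 0.07 TPM on plates 2 and 5, from 2 counts each, but at 1.90 TPM on plate 6, from 64 counts, within its day 9 range. The log2 fold change was -1.24 ± 1.08 (adjusted p = 0.623, edgeR) with all libraries and -4.56 without the plate 6 library (adjusted p = 0.0345, edgeR). In that library POU5F1 was 11.5 TPM and SOX2, at 0.57 TPM, was the lowest of the day. On day 20 NANOG stood at 0.06 TPM (2 counts) in plate 2, 3.92 TPM (83 counts) in plate 2_3 and 2.50 TPM (60 counts) in plate 6_1.

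ZFP42, DPPA4 and L1TD1 went on falling. ZFP42 reached 56.0, 40.5 and 61.3 TPM (log2 fold change -1.34 ± 0.20, adjusted p = 0.0227, edgeR), DPPA4 40.6, 28.1 and 30.4 TPM (-1.28 ± 0.17, adjusted p = 0.0178, edgeR) and L1TD1 26.0, 27.3 and 33.5 TPM (-1.57 ± 0.21, adjusted p = 0.0178, edgeR). SALL4 reached 142, 130 and 145 TPM, under all day 9 libraries, with a log2 fold change of -0.65 ± 0.15 that did not pass (adjusted p = 0.0684, edgeR). TERT stood at 2.77, 2.50 and 1.87 TPM (log2 fold change -1.29 ± 0.28, adjusted p = 0.0636, edgeR). With the plate number as a block SOX2 (-3.15), SALL4 (-0.54) and TERT (-1.48) passed (adjusted p = 0.00017, 0.0439 and 0.0109, edgeR). With DESeq2 in place of edgeR, 8 of the 9 genes passed, all but NANOG, and 1595 of all genes instead of 495.

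**Figure D3:**
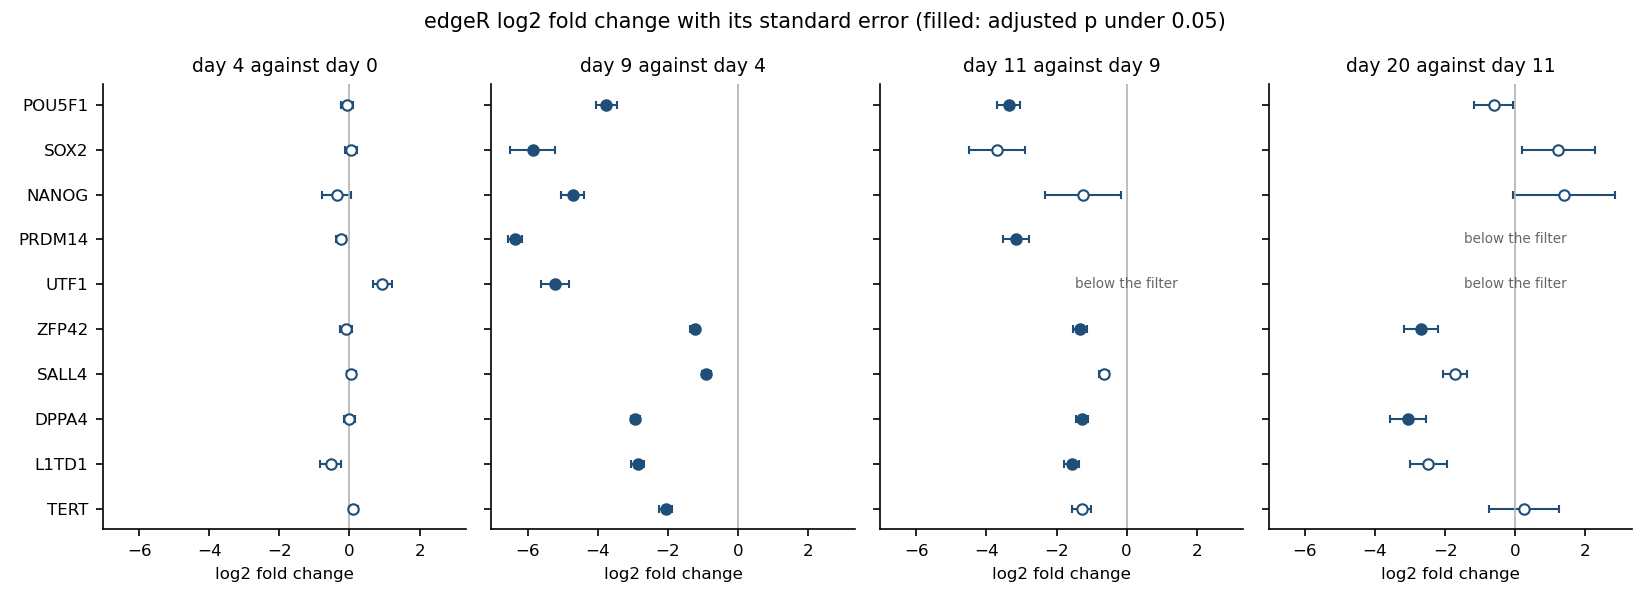
edgeR log2 fold change (point) and its standard error (bar) of the 10 genes for each step between sampled days, filled where the adjusted p-value is under 0.05. The first panel lies around 0, the second holds 10 filled points from -0.91 to -6.37, the third 5 filled points from -1.28 to -3.36, and the fourth 2 filled points, ZFP42 and DPPA4.

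What remained on day 11 was mostly SALL4 and ZFP42. The TPM of the 10 genes added up to 4672 ± 1082 on day 0 (SD, n = 3), 617 ± 19.5 on day 9 and 268 ± 25.9 on day 11. POU5F1 made up 27.3% of this sum on day 0 and 3.45% on day 11, while SALL4 went from 8.10% to 52.0%, and SALL4 and ZFP42 together from 14.8% to 71.5%. The ratio of SALL4 to POU5F1 was between 0.233 and 0.348 in the day 0 libraries, between 1.83 and 3.25 on day 9 and between 12.6 and 18.5 on day 11, so the 3 days did not overlap. Against day 0 all 10 genes were lower on day 11, where 19.8% of the 21229 genes tested were. The log2 fold changes ran from -1.51 ± 0.16 for SALL4 and -2.67 ± 0.26 for ZFP42 to -9.51 ± 0.50 for SOX2 and -9.78 ± 0.28 for PRDM14. SALL4 kept 37.6% of its day 0 level on day 11, ZFP42 16.6%, TERT 11.5%, DPPA4 5.64% and L1TD1 3.38%, and the other 5 genes at most 1.79%. By mean TPM, SALL4 still ranked 1069th of all genes on day 11 and POU5F1 11783rd.

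On day 20 few of the genes could be shown to lie below day 11. Of the 8 genes that passed the filter on low counts, 2 were lower than on day 11, where 0.435% of the 21398 genes tested were, and 4 did not overlap in that direction, against 10.6%. The 2 genes were ZFP42 and DPPA4. With the plate number as a block none of the 8 passed, at log2 fold changes of -2.86 for ZFP42 and -3.19 for DPPA4 (adjusted p = 0.0804 and 0.092, edgeR), and none did without any 1 of the 3 day 11 libraries; without the day 20 library of plate 2, 1 passed. Without the library of plate 2_3 the genes that passed were ZFP42, SALL4 and L1TD1, and DPPA4, at -3.20, did not (adjusted p = 0.0605, edgeR).

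ZFP42 stood at 7.52, 4.70 and 13.4 TPM on day 20 (plates 2, 2_3 and 6_1), below every day 11 library, with a log2 fold change of -2.69 ± 0.49 (adjusted p = 0.0422, edgeR). DPPA4 stood at 1.42, 6.28 and 5.71 TPM, a log2 fold change of -3.06 ± 0.50 (adjusted p = 0.0334, edgeR). SALL4 remained the highest of the 10 in each library, at 55.9, 31.9 and 46.8 TPM. Its log2 fold change against day 11 was -1.72 ± 0.35, and its groups did not overlap, yet it did not pass (adjusted p = 0.0544, edgeR). L1TD1 stood at 1.88, 12.4 and 4.43 TPM with a log2 fold change of -2.48 ± 0.54 (adjusted p = 0.0663, edgeR).

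For POU5F1 no further fall could be shown after day 11. It stood at 2.29, 7.70 and 9.98 TPM, and its range overlapped that of day 11 (log2 fold change -0.62 ± 0.55, adjusted p = 0.637, edgeR, and -0.58 without the library of plate 2_3). SOX2 was at 0.32, 9.23 and 1.34 TPM, with its highest value in the library of plate 2_3. The log2 fold change of SOX2 was 1.23 ± 1.05 with all libraries and -0.57 without that library, and neither passed. TERT stood at 0.21, 9.39 and 1.22 TPM, also highest in that library, with log2 fold changes of 0.25 ± 1.00 and -1.75, neither of which passed. PRDM14 and UTF1 did not pass the filter in this comparison. PRDM14 had 0, 94 and 16 counts and UTF1 0, 11 and 7 counts in the libraries of plates 2, 2_3 and 6_1. A count of 0 among the 26858099 of the plate 2 library allows up to 0.112 CPM (3 counts, for counting error only).

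**Figure D4:**
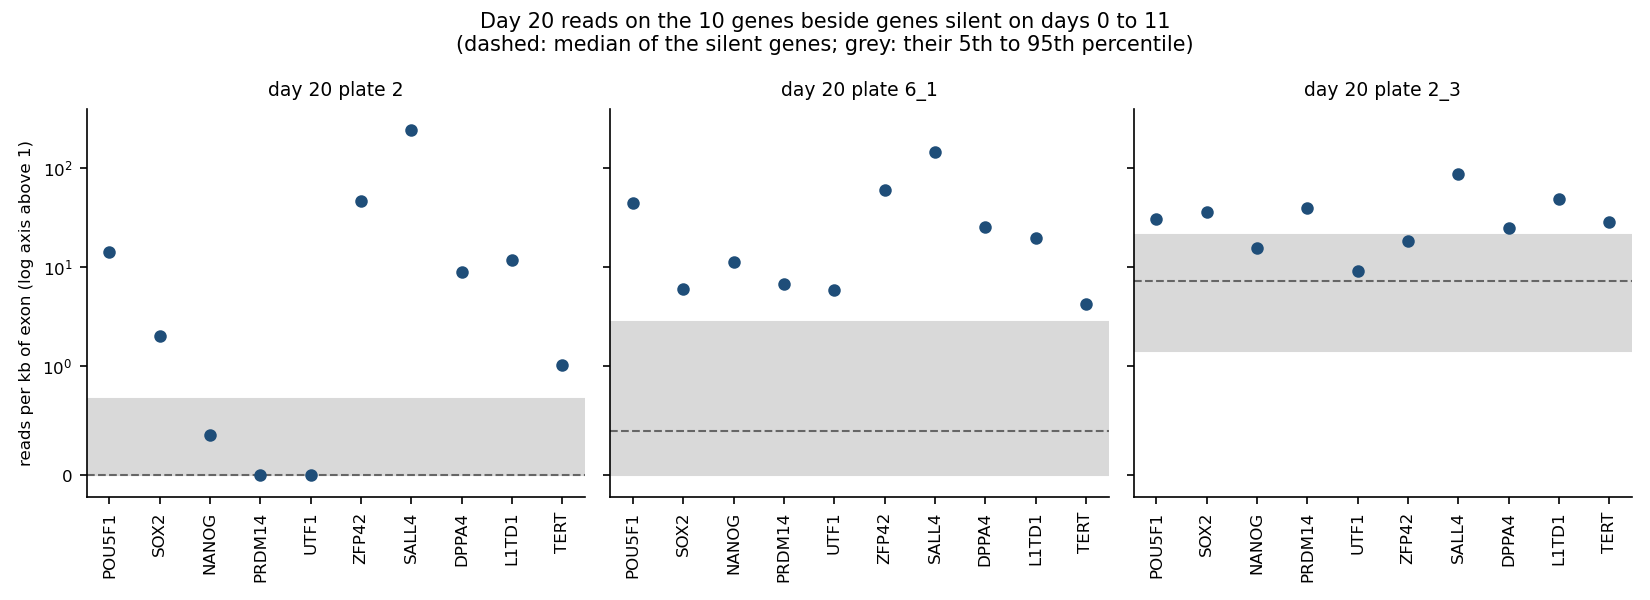
Reads per kb of exon on the 10 genes in each day 20 library, with the median (dashed line) and the 5th to 95th percentile (grey band) of 252 genes that were silent up to day 11; the axis is logarithmic above 1. In the library of plate 2_3 the band runs from 1.41 to 21.2 reads per kb and holds NANOG, ZFP42 and UTF1, in that of plate 6_1 all 10 genes lie above it, and in that of plate 2 NANOG, PRDM14 and UTF1 lie within it.

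How much of the day 20 signal lay above the reads of silent genes was examined with 252 autosomal protein-coding genes, each with at least 2000 exon bases and no more than 2 counts summed across the 12 earlier libraries. In the library of plate 2_3, 99.6% of these silent genes had a read, at a median of 7.19 reads per kb of exon. The share was 67.1% (median 0.405) in plate 6_1 and 16.7% (median 0) in plate 2. In the library of plate 2_3 NANOG (15.4 reads per kb), ZFP42 (18.5) and UTF1 (9.06) lay within the 5th to 95th percentile of the silent genes. The other 7 genes lay above it, from DPPA4 at 24.8 and TERT at 28.7 to L1TD1 at 48.8 and SALL4 at 88.0 reads per kb. PRDM14, at 39.7 reads per kb from 94 counts, was above every silent gene in this library, while it was at 0 counts in plate 2. In the plate 2 library SALL4 (244 reads per kb), ZFP42 (46.8), POU5F1 (14.3), L1TD1 (11.7) and DPPA4 (8.86) lay above the 95th percentile of the silent genes (0.691). So did SOX2 (1.99, from 5 counts) and TERT (1.01, from 6 counts). The highest silent gene of this library reached 44.4 reads per kb. The genes of this set were silent by choice only up to day 11, so that some may have been switched on by day 20.

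Against day 0 all 10 genes were lower on day 20, where 11.3% of the 21988 genes tested were. With all libraries the fold change was largest for SOX2 (-8.31 ± 1.06, adjusted p = 0.00149, edgeR), with POU5F1 (-7.83 ± 0.66, adjusted p = 0.000336, edgeR), L1TD1 (-7.47 ± 0.76) and DPPA4 (-7.31 ± 0.63) next. SALL4 (-3.24 ± 0.38) and TERT (-3.01 ± 0.96) fell least. Without the library of plate 2_3 all 10 were still lower in edgeR, in another order: SOX2 had a log2 fold change of -10.15, PRDM14 -9.09 (-6.97 with all libraries), L1TD1 -8.18, POU5F1 -7.81, DPPA4 -7.46 and SALL4 -2.96. TERT passed only just (adjusted p = 0.0497, edgeR) and lost its call under 7 of 15 alternatives, over which the adjusted p ran from 0.000811 to 0.131. Without the library of plate 2_3 its log2 fold change was -5.02 (adjusted p = 0.00196, edgeR). The share of the day 0 level left on day 20 was 0.521% for POU5F1 with all libraries and 0.480% without that of plate 2_3, and for SALL4 it was 12.2% and 13.9%. For SOX2 it was 0.437% with all libraries, and 0.0386% and 0.161% in the other 2 taken singly. It was 1.11% and 0.216% for PRDM14, 4.08% and 2.42% for NANOG and 17.4% and 3.43% for TERT. For ZFP42 it was 2.69% and 3.29%, for DPPA4 0.763% and 0.608%, for L1TD1 0.729% and 0.369% and for UTF1 5.60% and 3.02%. On the CPM scale with TMM factors and all libraries, the share was 8.94% for TERT, 0.571% for PRDM14, 0.229% for SOX2, 2.57% for NANOG, 3.40% for UTF1 and 0.441% for L1TD1. In the plate 2 library taken alone, which had the fewest reads on silent genes, 15.1% of SALL4, 2.37% of ZFP42 and 1.01% of TERT was left, and at most 0.242% of each of the other 7 genes.

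Markers of other cell types differed between the days and between the libraries of a day. The list for yolk sac and liver endoderm (AFP, APOA1, APOB, TTR, ALB, FOXA2, HNF4A, SOX17 and FGB), tissues that also make SALL4, summed to between 6.87 and 15.5 TPM on day 0 and between 454 and 1326 TPM on day 9, when 8 of its 9 genes reached 1 TPM in every library and ALB did so in none. The sums were 1571, 776 and 2600 TPM on day 11 (plates 2, 5 and 6) and 17521, 730 and 20655 TPM on day 20 (plates 2, 2_3 and 6_1). In these day 20 libraries SALL4 stood at 55.9, 31.9 and 46.8 TPM. The germ cell list (NANOS3, TFAP2C, DDX4, DAZL and DPPA3, with DND1 not among the genes used here), for cells in which POU5F1, NANOG and PRDM14 are also on, summed to between 5.49 and 10.1 TPM on day 11, with DDX4, DAZL and DPPA3 under 1 TPM in every library. On day 20 it summed to 4.28, 33.5 and 17.9 TPM in plates 2, 2_3 and 6_1. The cardiomyocyte list of 6 genes summed to between 291 and 479 TPM on day 9, 4799, 15328 and 3700 TPM on day 11 (plates 2, 5 and 6) and 15655, 14720 and 3717 TPM on day 20. The mesenchyme list of 5 genes summed to 2789, 986 and 6041 TPM on day 11 and 2492, 1109 and 21724 TPM on day 20, highest in plate 6 on day 11 and in plate 6_1 on day 20. The 6 genes of cycling cells summed to between 971 and 1303 TPM on day 0, 693 and 934 TPM on day 11, and 262, 701 and 439 TPM on day 20. Of the smaller lists, 4 endothelial genes summed to at most 175 TPM in any library, and 5 surface ectoderm genes to at most 12.5 TPM up to day 11 and to 2.78, 32.9 and 10.3 TPM on day 20. The part of these cell types in the levels of the 10 genes was not tested.

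POU5F1, NANOG, SALL4 and DPPA4 have copies in the genome to which reads can be misassigned. The 7 listed copies of POU5F1 held 777 counts on day 0, or 1.04% of the 74615 counts of POU5F1 over the 3 libraries. On day 11 they held 153 counts against 465, and on day 20 they held 261 counts against 256. For NANOG, 9 listed copies held counts equal to 6.56% of its own on day 0, 32.9% on day 9, 83.8% on day 11 and 97.2% on day 20. The 2 listed copies of DPPA4 held 0.662% of its counts on day 11 and 9.52% on day 20. For SALL4, 5 listed copies held 0.0510% and 3.91%. All these counts are sums over the 3 libraries of a day, which on day 20 include that of plate 2_3. Of these copies, POU5F1P3 (log2 fold change -2.49), POU5F1P4 (-1.79), POU5F1B (-1.53), NANOGP1 (-3.87) and NANOGP8 (-3.21) fell between days 4 and 9 with their parent genes. How many reads were shared between gene and copy was not tested. This leaves uncertain the low levels of POU5F1 and NANOG on days 11 and 20, and of DPPA4 on day 20. In the library of day 11 plate 6, where NANOG had 64 counts, NANOGP1 had 4 and NANOGP8 had 3. Of the 2870 exon bases of POU5F1, 248 overlap the exons of TCF19 on the other strand, and whether counting used strand is not given in the sources used here.

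Other genes of the pluripotent state were read from lists. Of 14 transcription factors that work with the core in primed (post-implantation) cells, 9 fell between days 4 and 9. Of the others, 1 rose and 4 did not pass, where 24.7% of all genes tested were lower and 24.3% higher. The median log2 fold change of these 14 was -2.03, against 0.01 for all genes. FOXD3 (-4.16), ZIC5 (-3.17) and ZIC2 (-3.10) were among those that fell. SOX3, the closest relative of SOX2, fell by 2.33 on the log2 scale, and SALL2 and SALL3, relatives of SALL4, fell by 1.49 and 2.27. SALL1 rose, from 93.9, 70.6 and 55.0 TPM on day 4 to 267, 96.7 and 264 TPM on day 9 (log2 fold change 1.56, adjusted p = 0.0172, edgeR), before it stood at 70.6, 117 and 39.1 TPM on day 11. FOXH1, a partner of SMAD proteins in Nodal signalling, stood at 146 ± 8.08 TPM on day 4 and 156 ± 50.4 TPM on day 9 (SD, n = 3) and did not pass. It fell between days 11 and 20 with all libraries (log2 fold change -3.32, adjusted p = 0.0445, edgeR). That call was lost without the day 11 library of plate 2, where no gene passed between these days. OTX2 had a log2 fold change of -1.39 by day 9 that did not pass (adjusted p = 0.0862, edgeR).

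Of 18 other genes used as stem cell markers, 16 fell between days 4 and 9, none rose and 2 (EPCAM and GDF3) did not pass. Over all genes tested 24.7% were lower and 24.3% higher, and the median log2 fold change of the 18 was -2.64. The noncoding RNAs ESRG (log2 fold change -6.55) and LINC00678 (-5.81) had the largest falls. DNMT3B, the de novo DNA methyltransferase, went from 2251, 2307 and 2102 TPM to 207, 166 and 151 TPM (-3.64). LIN28A and TRIM71, regulators of the let-7 pathway and of mRNA, fell by 0.63 and 1.26 on the log2 scale. LIN28A stood at 2575 ± 683 TPM on day 4, 1654 ± 261 on day 9, 992 ± 201 on day 11 and 60.3 ± 36.0 on day 20 (SD, n = 3). With all libraries its fall from day 11 to day 20 passed the test (log2 fold change -4.10, adjusted p = 0.023, edgeR). Without the day 11 library of plate 2 no gene passed in this step, LIN28A included.

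**Figure D5:**
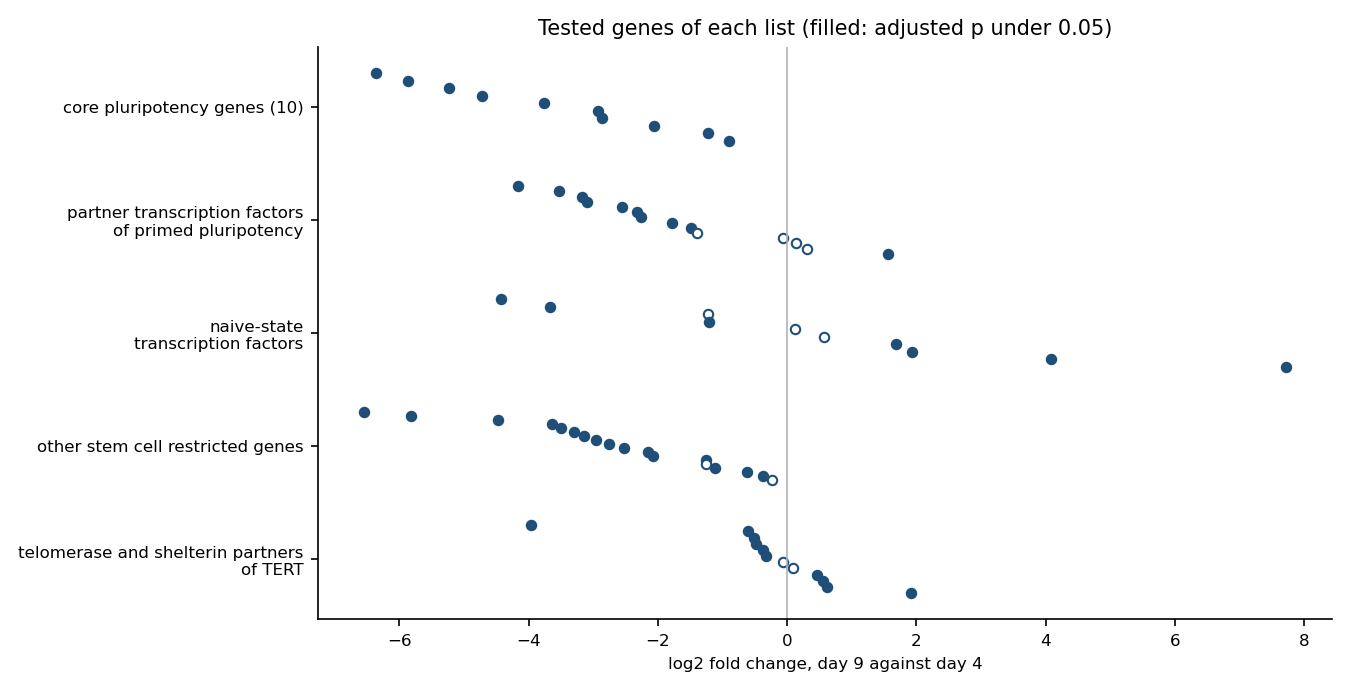
edgeR log2 fold change from day 4 to day 9 of each tested gene of the 10 core genes and of 4 lists, 1 point per gene, filled where the adjusted p-value is under 0.05, with vertical offsets only to separate points. The core genes and the 18 other stem cell markers (labelled stem cell restricted) all lie left of 0, with 2 of the latter unfilled. The naive-state list spreads from -4.43 to 7.72, and TERF1 (-3.96) stands alone among the partners of TERT.

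Of 12 genes of the naive (pre-implantation) state, mostly transcription factors, 10 were tested between days 4 and 9. Of these, 3 fell (KLF4, DPPA3 and DPPA5), 4 rose (KLF2, KLF5, TBX3 and NR0B1) and 3 did not pass. Over all genes tested 24.7% were lower and 24.3% higher, and with only 10 genes a difference from these shares was not tested. TBX3, which also acts in the heart and other organs, rose from 0.20, 0.54 and 0.35 TPM to 78.6, 69.9 and 71.4 TPM (log2 fold change 7.72, adjusted p = 1.06e-06, edgeR). The median log2 fold change of the list was 0.35.

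Of 13 genes of telomerase and shelterin, the protein complex that covers chromosome ends, 12 were tested between days 4 and 9, and 6 fell, 4 rose and 2 did not pass, at a median log2 fold change of -0.20, where 24.7% of all genes tested were lower and 24.3% higher. TERF1, a shelterin protein that binds telomere repeats, fell from 444, 541 and 711 TPM to 33.6, 47.5 and 27.3 TPM (log2 fold change -3.96, adjusted p = 9.68e-06, edgeR). The log2 fold change of TERT was -2.06. The other 5 that fell had log2 fold changes from -0.60 (NOP10) to -0.33 (DKC1). TERF2IP (RAP1), which binds TERF2, rose from 23.1, 17.3 and 22.3 TPM to 59.9, 107 and 69.3 TPM (log2 fold change 1.91, adjusted p = 0.000126, edgeR). TERC, the RNA subunit, had a mean of at most 2.22 TPM on any day and was not tested.

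The genes whose profile over the 15 libraries was most like the mean profile of the 10 were BEND4 (Pearson r = 0.992), RAB39B (0.989), PSIP1 (0.988), SCNN1A (0.987) and ZNF678 (0.987), among 17922 genes with a mean of at least 1 CPM. Taken singly, SALL4 was most like TRIM71 (r = 0.994), PRDM14 most like LINC00678 (0.992) and ZFP42 most like ICE2 (0.994). These r values are across the 15 libraries, 3 from each of 5 days, and describe them only.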

How the data were processed

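RNA-seq was performed by the authors on ribosome-depleted total RNA. According to the authors' methods and processing notes, reads were mapped to GRCh38 by STAR 2.5.2b and raw counts per gene were made with featureCounts 1.5.1, leaving out rRNA and mitochondrial genes. The authors computed the deposited TPM from these counts. The RNA integrity number (a score) and the uniquely mapped fraction of reads were deposited in a sample table. Library totals lay between 11990302 and 33469703 counts (median 22867831).

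The 10 genes and all lists were chosen with earlier results of these data known. Each pair of days was fitted alone on its 6 libraries, over all genes (edgeR 4.0.16, R 4.3.3). Genes were kept by filterByExpr (minimum count 10, minimum total 15), scaled by TMM and compared with the robust quasi-likelihood test, two-sided, at a Benjamini-Hochberg adjusted p of 0.05. A standard error is the log2 fold change divided by the square root of its F value. P-values measure the spread between the 3 replicates of a day, which are labelled as biological. The script was tested on simulated data. Shares left are mean TPM relative to the day 0 mean. Symbols, exons and coordinates were taken from GENCODE v44 (46872 of 48777 identifiers matched) and promoters from RefSeq. Named genes were the 10 genes, all genes of the lists, listed copies of the 10, and the genes most like them in profile; per-member likeness was added. Alternatives were DESeq2 1.42.0, limma 3.58.1 on log2 TPM with 1 or 0.1 added, other scalings, no filter, 1 fit of all 15 libraries, a threshold of 0.01, plate or lane as a block, each replicate left out, TPM without the short gene, CPM in place of TPM, and subtraction of the silent-gene level, which was added after the data were seen. No 2 replicates agreed within sampling noise. Some genes of the lists, and 1 marker list, are not reported here.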

Additional observations from a re-analysis of the deposited data

How the results depend on the processing

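The fall of all 10 genes from day 4 to day 9 held under every alternative run, with 10 genes past the threshold each time. From day 0 to day 11 all 10 passed under every alternative but no filter on low counts, where 9 did, and from day 0 to day 20 either 9 or 10 passed. The 2 later steps depended on the processing. For day 11 against day 9 (5 genes of the 10, 495 of all genes) the counts were 8 and 1595 with DESeq2, 2 genes of the 10 with all 15 libraries in one fit, 0 and 3 at an adjusted p under 0.01, and 1016 of all genes with no filter; with a replicate left out they ran from 0 to 6 and from 0 to 573, with 0 of both without the day 9 library of plate 2, and 2 of the 10 without the third library of day 9 or the day 11 library of plate 2. For day 20 against day 11 (2 and 332) they were 4 and 2045 with DESeq2, 4 and 3132 with all 15 libraries, 1 and 137 with the lane as a block, 0 and 0 at 0.01, and from 0 to 3 and from 0 to 510 with a replicate left out, with 0 of the 10 without any 1 day 11 library and 510 of all genes without that of day 20 plate 2_3. Day 4 against day 0 gave 1 gene of the 10 (UTF1) and 64 of all genes with no filter. Counts of all genes also moved for day 9 against day 4 (10406, and 6209 with all 15 libraries), day 11 against day 0 (8510, and 5289 at 0.01, with 6387 to 8557 as replicates were left out) and day 20 against day 0 (6027, and 10785 with all 15 libraries, 2852 at 0.01, and from 3128 to 3497 without any 1 day 0 library and 8993 without that of day 20 plate 2_3). The cause was not tested.

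Directions turned only where no test passed. For day 4 against day 0, DPPA4 (-0.00619) became 0.0162 with upper-quartile scaling, 0.00681 with no filter, 0.00344 with all 15 libraries, and 0.0744 and 0.0746 on log2(TPM + 1) and log2(TPM + 0.1), where ZFP42 (-0.0921) became 0.00680 and 0.00699. With a replicate left out, the log2 fold changes ran from -0.13 to 0.0843 for DPPA4, -0.20 to 0.0538 for POU5F1, -0.61 to 0.26 for NANOG, -0.0859 to 0.14 for SOX2, -0.22 to 0.14 for ZFP42 and -0.0137 to 0.0792 for SALL4. For day 20 against day 11, TERT (0.25) became -0.0616 with DESeq2, -0.0819 with no filter, -0.15 and -0.64 on log2(TPM + 1) and log2(TPM + 0.1), -0.0426 with the plate block and -0.86 with the lane block; it ran from -1.75 to 0.75 and SOX2 from -0.57 to 1.95 with a replicate left out.

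The plate block was fitted for the 2 comparisons that share more than 1 plate number. With the replicate block by plate number, day 11 against day 9 gave 1971 of all genes, lost the call of POU5F1 and gained those of SOX2, SALL4 and TERT, and day 20 against day 11 gave 0 of the 10 genes and 3 of all genes. Libraries of the same plate deviated together across genes with r = 0.156 and 0.390 for day 11 against day 9, and with r = -0.192, 0.00772 and 0.395 for day 20 against day 11, from at most 3 same-plate pairs, so that the libraries may share no more than a number (plates 6 and 6_1 were taken as 1). No paired analysis was possible for the other comparisons because the days share fewer than 2 plate numbers. The lane block was fitted for the 3 steps after day 4.

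In CPM with TMM factors the day 20 share was lower for all 10 genes, by over 1.5 times for TERT, PRDM14, SOX2, NANOG, UTF1 and L1TD1. By more than the spread of the replicates, 3 shares moved: ZFP42 and SALL4 on day 4 became 92.6% and 102% without the short gene, and SALL4 on day 11 became 34.9% in CPM with TMM factors. With the silent-gene level subtracted, 0.426% of POU5F1, 10.4% of SALL4, 0.852% of PRDM14 and 12.3% of TERT was left on day 20. These shares come from counts scaled to the library total without TMM factors. They therefore cannot be set against the shares in CPM with TMM factors to read the effect of the subtraction. Depth limits what can be said of PRDM14 and UTF1 after day 9, at 0 to 16 counts outside the library of plate 2_3.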
